A study of Mus musculus with 10 samples.

Results

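The astrocyte genes described here are 37 genes that mark astrocytes in mouse brain, chosen by name from what these cells are known to express, out of 18193 genes that the array measures with a probe set of their own. All 37 were measured, and for each gene the brightest probe set whose annotation names that gene alone stands for it. They were read in the cerebral cortex of *Crtc1*-/- mice, a knockout line for the CREB-regulated transcription coactivator whose labels name no cell type to which the loss is limited, and of wild-type (WT) littermates. Both groups were untreated C57BL/6N females aged 2 months, with 5 mice per genotype and 1 array per mouse. The mice are called KO1 to KO5 and WT1 to WT5 after their labels. The tissue was whole cortex and not sorted cells, so that fewer astrocytes and less RNA per astrocyte cannot be told apart in any value below. The paper states that its experiments used several batches of mice, run one after another and then pooled, and gives no batch for any array. The labels do not say whether each array holds a separate extraction day or litter, and the p-values measure the spread between these 10 mice.
Astrocytes clear glutamate and GABA from the synaptic cleft, convert glutamate to glutamine and hand it back to neurons. They buffer water and ions around capillaries through their endfeet, are coupled to one another by gap junctions, and supply neurons with lipids and with energy substrates. After injury or inflammation they become reactive, a state for which the intermediate filament protein GFAP is the usual histological mark. CRTC1 binds CREB at the cAMP response element (CRE) of its target genes and is mostly studied in neurons.
In *Crtc1*-/- cortex no astrocyte gene passed the test in either direction, where 0.203% of all genes were called higher and 0.313% lower. *Gfap* was the member that stood farthest apart, 0.22 higher on the log2 scale with each *Crtc1*-/- mouse above each WT mouse (1.10% of all genes), yet its adjusted p was 0.458. The others lay between −0.09 and 0.15. Of the 37 differences 31 were positive, with a median of 0.07. Without the mice WT4 and WT5, which were the 2 lowest WT mice in 31 of 37 members, 15 of 37 were positive and the median was −0.02. These 2 mice were left out after their values were seen, and leaving out the lowest WT mice lowers the differences by construction.

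Because CRTC1 acts through CREB, the promoters of the members were searched for the CRE. RefSeq windows of 300 bases, 250 before and 50 after the start, on GRCm38.p6 were at hand for 31 of the 37 members, and *Sox9*, *Atp1b2*, *Vcam1*, *Clu*, *Slc14a1* and *Aqp4* had none. The full element TGACGTCA, which reads the same on both strands, was found in 1 of the 31 members (3.23%), against 2.03% of 27025 genes with such a window. This member was *Dio2*, the deiodinase that makes active thyroid hormone, and its element begins 95 bases before the start. The 250 bases before the *Dio2* start, chr12:90739039-90739288 on the minus strand, are shown with the element in capitals, and those of *Gfap*, chr11:102897201-102897450 on the minus strand, are shown because *Gfap* was the member that stood farthest apart. No capitals appear in the *Gfap* stretch since neither form of the element was found there, which says only that these letters are not in this window.
*Dio2*: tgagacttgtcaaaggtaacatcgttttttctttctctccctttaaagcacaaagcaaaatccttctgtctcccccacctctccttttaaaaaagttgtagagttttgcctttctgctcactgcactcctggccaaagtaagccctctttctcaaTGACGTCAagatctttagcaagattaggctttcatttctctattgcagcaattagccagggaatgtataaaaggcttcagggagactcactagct
*Gfap*: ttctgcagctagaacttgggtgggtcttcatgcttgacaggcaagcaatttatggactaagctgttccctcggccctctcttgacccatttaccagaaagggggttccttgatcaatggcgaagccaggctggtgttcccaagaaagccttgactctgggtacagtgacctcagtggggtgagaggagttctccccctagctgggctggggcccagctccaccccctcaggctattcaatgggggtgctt
The short form of the element, TGACG or CGTCA on the other strand, is contained in the full element and was found in 4 of 31 members (12.9%), against 23.05% of all genes with a window. Beside *Dio2* these were *Gja1*, *Id4* and *Slc1a3*, shown with the short form in capitals. The windows lie at chr10:56377087-56377115 and chr10:56377129-56377157 on the plus strand for *Gja1*, where the short form begins 201 and 159 bases before the start, at chr13:48260875-48260903 on the plus strand for *Id4* (229 bases before) and at chr15:8710804-8710832 on the minus strand for *Slc1a3* (13 bases before).
*Gja1*, first: ccccgcagtagcTGACGtacatctagagc
*Gja1*, second: ttttccccttctCGTCAgcacattgaaac
*Id4*: cattggcccgagCGTCAttccccgaggtg
*Slc1a3*: aagaacaccctcTGACGtcccctgaaggg
None of these 4 genes differed between the genotypes beyond the spread between mice. The differences were 0.04 for *Dio2* (SE 0.09), 0.04 for *Gja1* (SE 0.05), 0.09 for *Id4* (SE 0.13) and 0.02 for *Slc1a3* (SE 0.06) on the log2 scale.

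The targeted gene followed the labels. *Crtc1* read 6.28, 6.58, 6.47, 5.96 and 6.60 in KO1 to KO5, against 9.86, 9.84, 9.64, 9.51 and 9.62 in WT1 to WT5, a log2 difference of −3.32 (SE 0.12, limma adjusted p = 2.13e-07). The probe set is 1434476_at, and whether it lies inside the disrupted stretch is not given in the sources used here. Array medians lay between 5.29 and 5.32 and any pair of arrays correlated at 0.994 to 0.998 over probe sets. The difference between the 3′ and 5′ probe sets of actin, a sign of RNA integrity, was 0.70 to 0.76 in *Crtc1*-/- and 0.69 to 0.84 in WT arrays. For *Gapdh* it was 0.03 in KO1, 0.09 to 0.12 in the other *Crtc1*-/- arrays and 0.09 to 0.11 in WT arrays. Over all 18193 genes, 37 were called higher (0.203%) and 57 lower (0.313%) in *Crtc1*-/- cortex at an adjusted p of 0.05, and the median log2 difference was −0.00.
The members' probe sets averaged between 6.26 and 13.18 on the log2 scale, each above the median of the arrays. Brightness depends on the probes as well as on the RNA, and these levels give no order among the genes. Arrays WT4 and WT5 stood apart from the other WT arrays in the astrocyte genes. WT4 lay below the 10-mouse mean in 37 of 37 members and WT5 in 36 of 37. They were the 2 lowest WT arrays in 31 of 37 members (83.8%), whereas the same was true of 2616 of 18193 genes (14.4%). For this reason differences are given below with and without these mice, a choice made after their values were seen. Where they were the lowest WT mice, leaving them out lowers the difference by construction, so these values are description only.

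Among the genes of the cytoskeleton and of calcium binding, *Gfap* separated the genotypes and *S100b* did not. The *Gfap* probe set 1426508_at read 7.13, 7.52, 7.20, 7.42 and 7.24 in KO1 to KO5, against 7.02, 7.10, 7.11, 7.04 and 7.13 in WT1 to WT5. The groups did not overlap, but by a hair, since the lowest *Crtc1*-/- value was 7.128 (KO1) and the highest WT value 7.125 (WT5). With quantile normalization or with each array centred on its median, they overlapped. *Gfap* averaged 7.30 ± 0.16 in *Crtc1*-/- and 7.08 ± 0.05 in WT cortex (SD, n = 5 each). The log2 difference was 0.22 (SE 0.07, 95% confidence interval 0.06 to 0.38), and the *Crtc1*-/- mice spread more than the WT mice. The two-sided exact permutation test gave p = 0.00794, the smallest that 5 against 5 allows, and limma gave p = 0.0100 and an adjusted p of 0.458 over all probe sets. *Gfap* was the 1 member of 37 with an unadjusted p under 0.05, a level that 1606 of 18193 genes reached, and the 1 member with each *Crtc1*-/- mouse above each WT mouse, as seen in 1.10% of all genes. No member had each *Crtc1*-/- mouse below each WT mouse (2.04% of all genes).
Both other *Gfap* probe sets pointed the same way with overlapping groups. Their log2 differences were 0.23 for 1426509_s_at (adjusted p = 0.536) and 0.16 for 1440142_s_at (adjusted p = 0.793), with the highest values of each in KO2 and KO4. The *Gfap* difference was as large without WT4 and WT5 (0.23).
*S100b*, a calcium-binding protein that astrocytes make and release, read 10.61, 10.39, 10.63, 10.54 and 10.37 in KO1 to KO5. It read 10.55, 10.51, 10.56, 10.45 and 10.50 in WT1 to WT5, inside the range of the *Crtc1*-/- mice. Its difference was −0.01 (SE 0.06, 95% confidence interval −0.14 to 0.12).

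**Figure D1:**
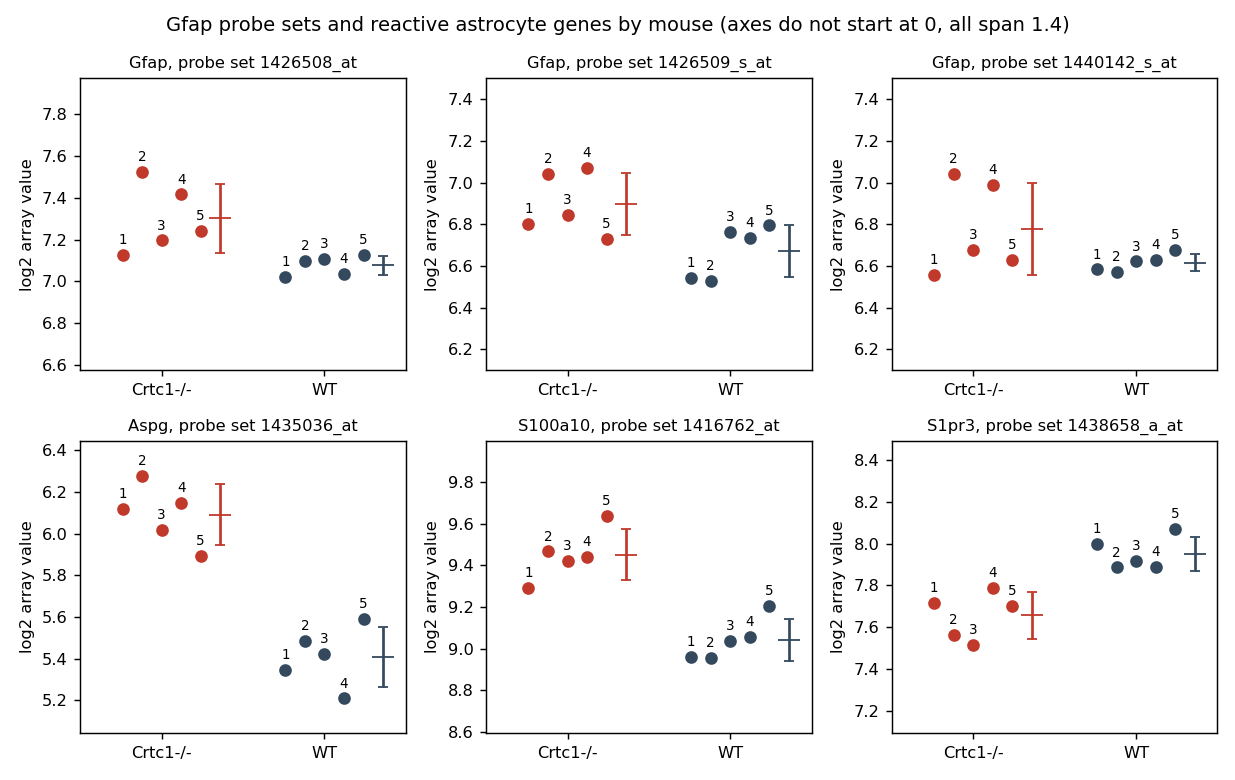
Log2 array values (y axis) of the 3 *Gfap* probe sets and of the reactive astrocyte genes *Aspg*, *S100a10* and *S1pr3* in each mouse, *Crtc1*-/- left (red) and WT right (blue), with mouse numbers over the points and the mean ± SD at the side (n = 5 each). KO2 and KO4 are the highest mice in each *Gfap* panel, while *Aspg* and *S100a10* lie higher and *S1pr3* lower in all *Crtc1*-/- mice.

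The 6 genes of glutamate, GABA and amino acid handling all had small positive differences and none was called. *Slc1a2*, the transporter that takes up most synaptic glutamate in the forebrain, read 13.26, 13.21, 13.14, 13.16 and 13.16 in KO1 to KO5, against 13.03, 13.12, 13.20, 13.09 and 13.10 in WT1 to WT5. The groups overlapped through WT3 alone, and the difference was 0.08 (SE 0.05, adjusted p = 0.822). *Slc1a3*, the second glial glutamate transporter, read 10.71, 10.64, 10.61, 10.68 and 10.56 in KO1 to KO5 and 10.67, 10.59, 10.79, 10.55 and 10.47 in WT1 to WT5. Here WT3 was the highest mouse of all and WT5 the lowest, and the difference was 0.02 (SE 0.06). *Slc25a18*, a mitochondrial glutamate carrier, had the largest difference of this set. It read 10.16, 9.99, 10.04, 10.11 and 9.98 in KO1 to KO5, against 10.03, 10.04, 9.78, 9.78 and 9.94 in WT1 to WT5. WT3 and WT4 were the lowest of all mice, and the difference was 0.14 (SE 0.07, adjusted p = 0.71).
The differences of the remaining members of this set were 0.09 for *Slc7a10*, an exchanger of small neutral amino acids, 0.03 for glutamine synthetase (*Glul*) and 0.00 for *Slc6a11*, the GABA transporter of astrocyte processes. Per mouse, the mean of the 6 genes lay between 10.55 and 10.69 in *Crtc1*-/- and between 10.43 and 10.63 in WT cortex. Its difference was 0.06, and −0.01 without WT4 and WT5.

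Genes of water, ion and volume control did not separate the genotypes. *Aqp4*, the water channel of the perivascular endfeet, read 10.07, 10.17, 10.20, 10.11 and 9.79 in KO1 to KO5, against 10.05, 9.89, 10.04, 9.94 and 9.82 in WT1 to WT5. Without KO5, the lowest mouse of all, the groups would not overlap, while with it the difference was 0.12 (SE 0.08, adjusted p = 0.843). The 3 *Aqp4* probe sets did not point one way, with differences of 0.12, 0.24 and −0.08. The last was from the dim probe set 1447745_at, which averaged 4.36 in *Crtc1*-/- and 4.45 in WT cortex, under the array medians.
The urea transporter *Slc14a1* (0.12) and the glial sodium pump subunit *Atp1b2* (0.11) came next. *Mlc1* and *Hepacam*, which encode partner proteins of the astrocyte membrane whose loss causes a leukoencephalopathy in humans, had differences of 0.04 and 0.02, and the sodium bicarbonate cotransporter *Slc4a4* and the tweety family member *Ttyh1* both had −0.00. The mean of the 7 genes differed by 0.06, and by −0.01 without WT4 and WT5. *Slc14a1* (0.14) and *Aqp4* (0.07) kept positive values without these mice, whereas *Slc4a4* (−0.09) and *Ttyh1* (−0.10) lay below 0.

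Genes of cell junctions were also within the spread between mice. *Gja1*, the main connexin of astrocyte gap junctions, read 11.73, 11.60, 11.69, 11.65 and 11.67 in KO1 to KO5, against 11.66, 11.67, 11.74, 11.52 and 11.59 in WT1 to WT5, a difference of 0.04 (SE 0.05, 95% confidence interval −0.08 to 0.15). Its 6 probe sets gave differences from −0.16 to 0.04, with 2 of them below 0. *Gjb6*, the other connexin of astrocytes, read 9.77, 9.92, 9.70, 10.16 and 9.87 in KO1 to KO5 and 9.94, 10.05, 9.93, 9.80 and 9.84 in WT1 to WT5. KO3 and KO1 were the lowest and KO4 the highest of all 10 mice, so that the *Crtc1*-/- group enclosed the WT group, and the difference was −0.03 (SE 0.08). For *Cldn10*, a claudin, it was 0.11 (SE 0.07, adjusted p = 0.835).

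The metabolic genes held members at both ends of the list. *Aldh1l1*, the folate enzyme widely used to mark astrocytes, read 9.41, 9.34, 9.23, 9.37 and 9.33 in KO1 to KO5, against 9.30, 9.33, 9.30, 8.97 and 9.05 in WT1 to WT5. WT4 and WT5 were the lowest of all mice and the other WT mice lay within the *Crtc1*-/- range. The difference was 0.15 (SE 0.08, adjusted p = 0.754), and 0.03 without WT4 and WT5. *Pla2g7*, which breaks down platelet-activating factor, read 10.90, 10.62, 10.75, 10.85 and 10.71 in KO1 to KO5, against 10.79, 10.60, 10.70, 10.48 and 10.57 in WT1 to WT5. The groups overlapped, with a difference of 0.14 (SE 0.07, adjusted p = 0.747) and of 0.07 without WT4 and WT5.
*Aldoc*, the brain aldolase of glycolysis, read 13.07, 12.97, 12.98, 13.13 and 13.08 in KO1 to KO5 and 13.11, 13.12, 13.10, 12.89 and 12.94 in WT1 to WT5, a difference of 0.01 (SE 0.06) that was −0.07 without WT4 and WT5. Its other probe set, 1424714_at, gave −0.13 (adjusted p = 0.840).
At the lower end stood *Prodh*, the first enzyme of proline breakdown. It read 7.53, 7.63, 7.38, 7.88 and 7.63 in KO1 to KO5, against 7.75, 7.87, 7.80, 7.53 and 7.52 in WT1 to WT5. KO3 was the lowest and KO4 the highest mouse of all, and the difference was −0.09 (SE 0.10, 95% confidence interval −0.30 to 0.13), or −0.20 without WT4 and WT5. *Cbs*, which makes cystathionine from homocysteine, read 7.64, 7.53, 7.58, 7.78 and 7.64 in KO1 to KO5, against 7.79, 7.82, 7.63, 7.55 and 7.63 in WT1 to WT5. WT1 and WT2 were the highest mice, and the difference was −0.05 (SE 0.07, adjusted p = 0.938). The acyl-CoA synthetase *Acsbg1* had a difference of 0.10, *Ndrg2*, which has the fold of a hydrolase, 0.07, and *Dio2* 0.04, each with groups that overlapped.

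The 7 secreted and surface proteins all had positive differences, between 0.03 and 0.10, and none was called. *Cst3*, which encodes the protease inhibitor cystatin C, had the highest (0.10, SE 0.05, adjusted p = 0.734), followed by tissue factor (*F3*, 0.08), the chaperone clusterin (*Clu*, 0.07), the glypican *Gpc5* (0.07), apolipoprotein E (*Apoe*, 0.05), the adhesion molecule *Vcam1* (0.04) and *Mfge8*, a bridging protein of phagocytosis (0.03). Without WT4 and WT5 their mean difference was −0.01, against 0.06 with them. Of the receptors, *Ntsr2* for neurotensin had a difference of 0.11, which was 0.00 without WT4 and WT5, and *Fgfr3* for fibroblast growth factors had 0.09. The transcription factor *Sox9*, which specifies glia, had 0.07 with and without these mice, and *Id4*, an inhibitor of basic helix-loop-helix factors, had the widest interval of all members (difference 0.09, −0.19 to 0.38).

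**Figure D2:**
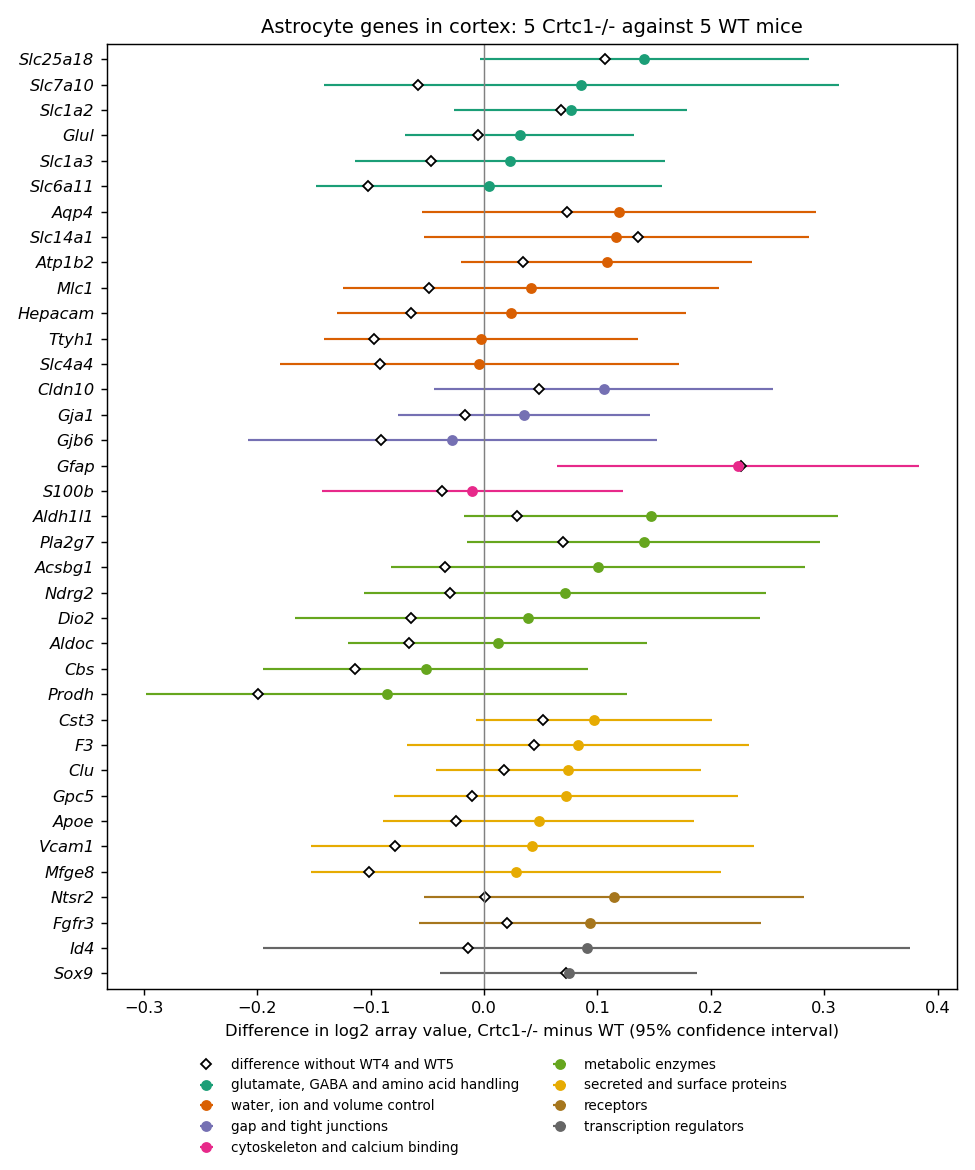
Difference in log2 array value, *Crtc1*-/- minus WT (x axis), for each of the 37 astrocyte genes (y axis, grouped and coloured by role), with the 95% confidence interval from limma as a line (5 mice per genotype). Open diamonds give the difference without WT4 and WT5. The interval of *Gfap* alone lies above 0, and most diamonds lie left of their points, with 15 of 37 above 0.

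The data set narrow bounds on the members. The 95% confidence interval held 0 for 36 of 37 genes and lay above 0 for *Gfap*. It stayed inside ±0.3 on the log2 scale for 33 genes and reached past 0.3 upward for *Gfap*, *Aldh1l1*, *Slc7a10* and *Id4*. Standard errors lay between 0.05 and 0.13 (median 0.07). At the level of |t| where calls began over all probe sets (5.52), a member needed a difference of 0.26 to 0.72 to be called, with a median of 0.39, while the largest seen was 0.22. Differences smaller than that could not be called with 5 mice per genotype. With 37 members, a background of 0.203% called higher and 0.313% called lower is less than 1 gene in either direction, and 0 and 0 members called is near it.
The members have 83 probe sets in all, and 22 of them have more than 1. Of the 46 probe sets that were not the brightest of their gene, 34 had a positive difference, none was called, none had groups that did not overlap, and their median was 0.04. For 8 members the probe sets disagreed in sign, a count that includes dim probe sets such as 1447745_at of *Aqp4*.

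As a group, the astrocyte genes had a median difference of 0.07 and a mean of 0.06 on the log2 scale, against a median of −0.00 over all genes, and 31 of 37 were positive, against 48.4% of all genes. The mean of the 37 genes was 10.11, 10.04, 10.03, 10.14 and 10.005 in KO1 to KO5, against 10.07, 10.07, 10.08, 9.87 and 9.91 in WT1 to WT5. It averaged 10.06 ± 0.06 in *Crtc1*-/- and 10.002 ± 0.10 in WT cortex (SD, n = 5 each). WT1, WT2 and WT3 lay within the range of the *Crtc1*-/- mice, and WT4 and WT5 lay below all others. WT4 was the lowest of all 10 mice in 21 members, and WT4 and WT5 were the 2 lowest of all in 19.
Among *Crtc1*-/- mice, KO4 lay above the 10-mouse mean in 35 of 37 members and KO1 in 30, and these were the highest mice in 10 and 12 members. KO2, KO3 and KO5 were near the middle, with 19, 17 and 17 members above the mean. KO1, high in most members, was also the array with the lowest difference between the 3′ and 5′ probe sets of *Gapdh*. The part of this difference in the result was not tested.
Without WT4 and WT5 the WT mean was 10.07, the difference between genotypes was −0.01, the median over the members was −0.02 and 15 of 37 were positive. *Gfap* was among those that kept their value. The shift was also smaller without KO1 and KO4, likewise left out after their values were seen, with a median of 0.02 and 24 of 37 positive. Leaving out the lowest WT mice, or the highest *Crtc1*-/- mice, lowers the difference by construction.

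**Figure D3:**
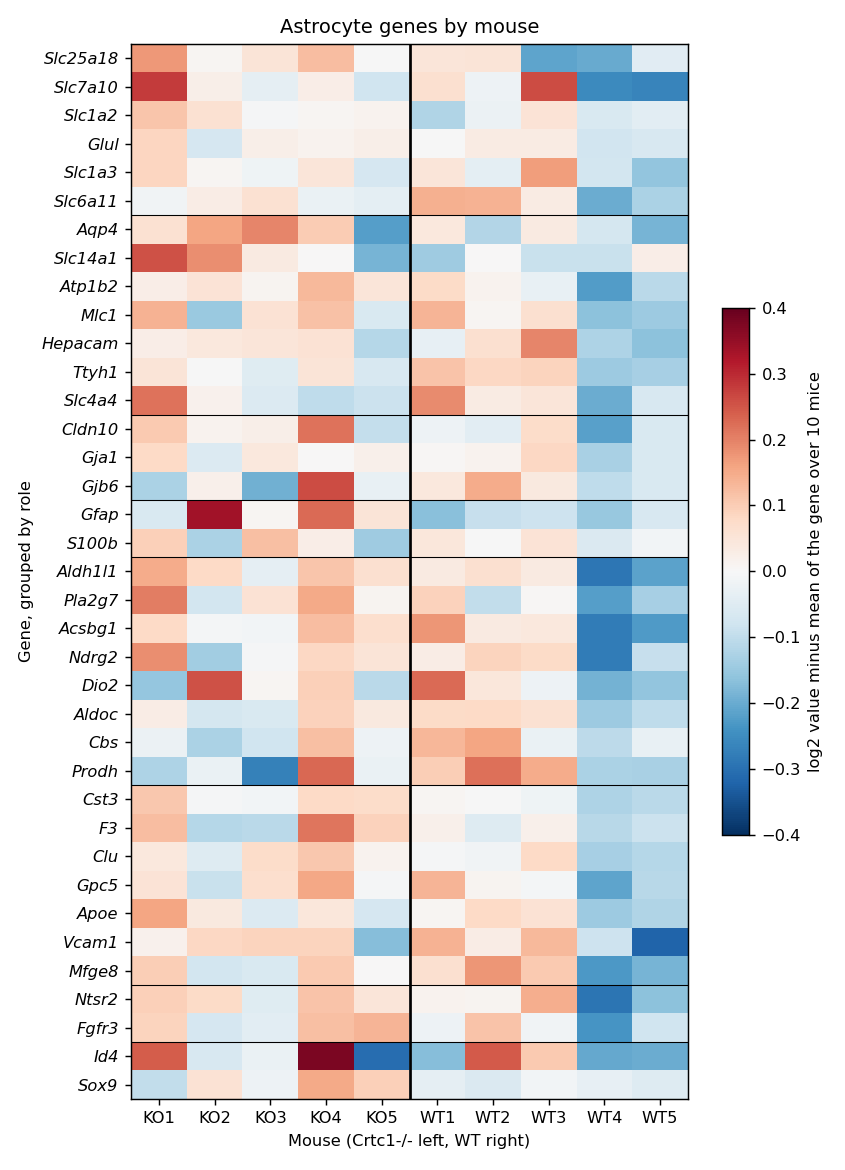
Deviation of each mouse from the 10-mouse mean of each astrocyte gene, in log2 units (colour, red above and blue below the mean), with *Crtc1*-/- mice left and WT mice right of the line and genes grouped by role. WT4 is below the mean in 37 of 37 genes and WT5 in 36, while KO4 is above it in 35.

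The same mice were low in further astrocyte genes and in some other cell types. A list of 59 other astrocyte genes ranged from 7.82 to 7.97 per mouse in *Crtc1*-/- and from 7.71 to 7.93 in WT cortex, with WT4 (7.71) and WT5 (7.77) lowest. Of these 59 none was called and 44 were positive, with a median of 0.05 that was −0.02 without WT4 and WT5. The smallest p values in it belonged to the fatty acid transporter *Slc27a1* (−0.23, adjusted p = 0.246), to *Id3*, an inhibitor of basic helix-loop-helix factors (0.18, adjusted p = 0.562), to *Btbd17* (0.18, adjusted p = 0.682) and to *Etnppl*, an enzyme of phosphoethanolamine breakdown (−0.36, adjusted p = 0.736).
In 10 microglia markers the mean per mouse was 8.53 to 8.86 in *Crtc1*-/- and 8.54 to 8.90 in WT cortex, with WT4 (8.54), WT5 (8.56) and KO5 (8.53) low. In 12 endothelial and mural markers it was 8.25 to 8.41 in *Crtc1*-/- and 8.05 to 8.37 in WT cortex, with WT4 (8.05) and WT5 (8.17) lowest. These lists were thus low in the same WT mice as the astrocyte genes. In 9 markers of choroid plexus and ependyma WT4 (4.90) and WT5 (5.02) were the highest WT mice, in a range of 4.67 to 4.98 in *Crtc1*-/- and 4.65 to 5.02 in WT cortex. These means lay under the array medians (5.29 to 5.32). One marker, *Ttr*, read 7.10 in WT5 against 5.65 to 6.03 in the other WT mice. Among *Crtc1*-/- mice it read 7.47 in KO5, the highest of all 10, and 6.60 in KO4, against 5.86 to 6.07 in the others. The mean of the 14 neuron markers varied little, at 11.53 to 11.58 in *Crtc1*-/- and 11.56 to 11.60 in WT cortex. Here WT4 (11.594) and WT5 (11.602) were the highest of all mice. None of the 14 was called, and 3 had an unadjusted p under 0.05 from limma. The difference between 3′ and 5′ probe sets was 0.69 in WT4, the lowest of all arrays, and 0.77 in WT5 for actin, and for *Gapdh* it was 0.095 in WT4 and 0.085 in WT5, against 0.101 to 0.112 in the other WT arrays. The part of these shifts between mice in the astrocyte result was not tested.
The oligodendrocyte markers followed another pattern. Their mean was 10.23 to 10.55 in *Crtc1*-/- and 9.97 to 10.30 in WT cortex, with WT1 (10.04) and WT2 (9.97) lowest. All 11 were positive with a median of 0.17, and none was called. With their mean as a covariate 36 of 37 astrocyte genes were positive, with a mean difference of 0.11, and none was called. The mean of the 9 hippocampal markers was 4.57 to 4.73 in *Crtc1*-/- and 4.72 to 4.88 in WT cortex, under the array medians (5.29 to 5.32). Of these markers 2, *Fibcd1* and *Fam163b*, were called lower (0.313% of all genes were). *Fibcd1* averaged 5.02 in *Crtc1*-/- and 5.43 in WT cortex, near the array medians, and *Fam163b* 8.21 and 8.50. With the hippocampal mean as a covariate the mean difference of the astrocyte genes was 0.04, with 26 positive and none called. The hippocampal mean itself differed between the genotypes (−0.13), as did the oligodendrocyte mean (0.20), so these fits cannot separate marker level from genotype. The mean of 8 oligodendrocyte precursor markers was 7.86 to 8.04 in *Crtc1*-/- and 7.84 to 7.97 in WT cortex, with WT4 (7.84) and WT5 (7.88) again the lowest WT mice. The mean of 9 meningeal markers was 7.63 to 8.03 in *Crtc1*-/- and 7.75 to 7.97 in WT cortex.

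**Figure D4:**
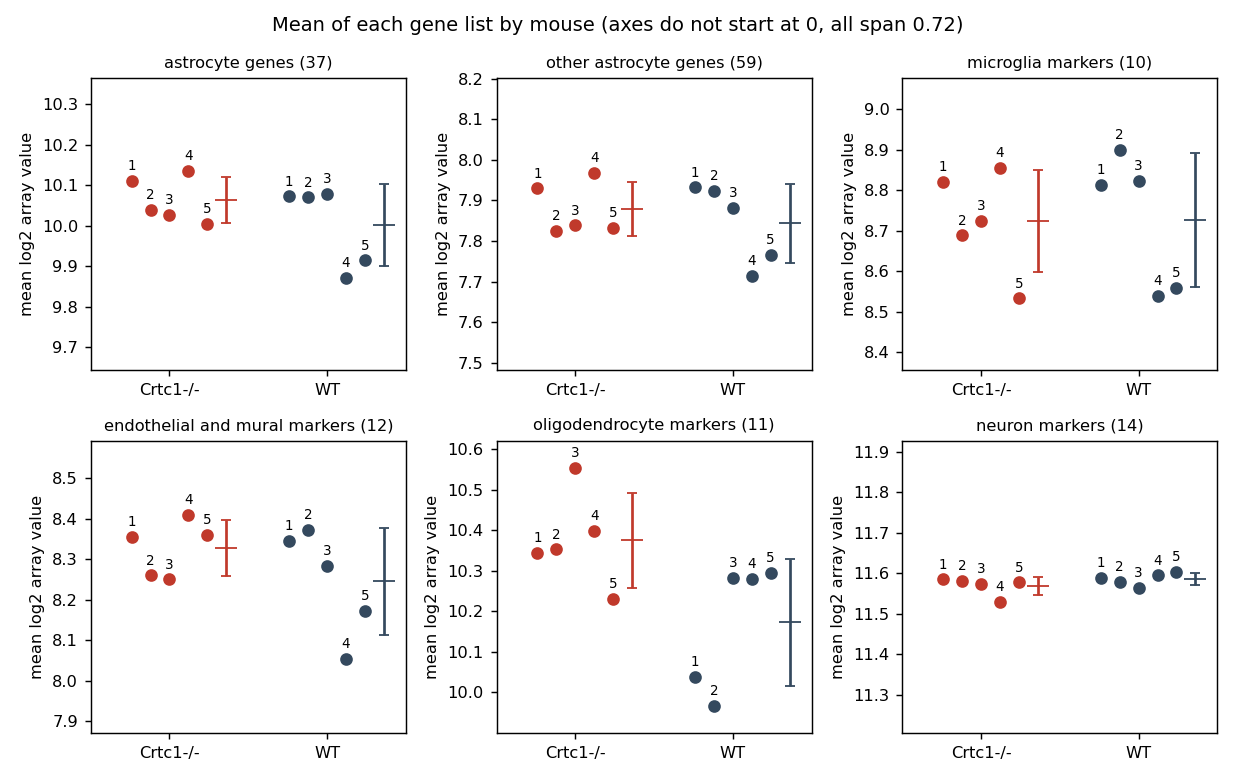
Mean log2 array value (y axis) of 6 gene lists in each mouse, *Crtc1*-/- left (red) and WT right (blue), with mouse numbers over the points, the mean ± SD at the side (n = 5 each) and the number of genes in brackets. WT4 and WT5 are the lowest WT mice for both astrocyte lists, microglia, endothelial and mural markers, but not for oligodendrocyte or neuron markers.

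Genes that work with the members in astrocyte pathways gave no call. Of 8 genes of the endfoot complex that anchors the water channel, 7 were measured, with a median difference of 0.07. Alpha-dystrobrevin (*Dtna*) had the smallest p of them, reading 9.27, 9.07, 9.18, 9.17 and 9.005 in KO1 to KO5, against 8.87, 8.90, 8.96, 9.02 and 9.008 in WT1 to WT5. KO5 fell among the WT mice, and the difference was 0.19 (SE 0.06, adjusted p = 0.396). The other 3 with the smallest p were the syntrophin *Sntb1* (−0.13), agrin (*Agrn*, 0.08) and dystroglycan (*Dag1*, 0.05).
Of 12 genes of the glutamate-glutamine cycle 10 were measured, with a median of −0.03, and 4 were positive. The neuronal vesicular glutamate transporter *Slc17a6* read 8.88, 8.50, 8.53, 8.80 and 8.67 in KO1 to KO5, against 7.91, 7.85, 7.88, 8.34 and 8.43 in WT1 to WT5. Its groups did not overlap, with WT4 and WT5 nearest to the *Crtc1*-/- mice, and the difference of 0.59 did not pass (SE 0.13, adjusted p = 0.104). Its relative *Slc17a7*, the main form of cortical neurons, had −0.13 (adjusted p = 0.548), the neuronal transporter *Slc1a1* −0.12 (adjusted p = 0.703), and the glutamine transporter *Slc38a3* of astrocytes 0.14 (adjusted p = 0.825). All 12 genes of glycogen storage and lactate transfer were measured with a median of 0.06, and none was called. Their smallest p values were those of the lactate dehydrogenases *Ldha* (−0.08) and *Ldhb* (0.07), the lactate transporter *Slc16a3* (0.10) and the glucose transporter *Slc2a1* (−0.16).

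Genes known to be induced in reactive astrocytes were taken as a separate list of 36, of which 33 were measured. In *Crtc1*-/- cortex 2 of the 33 rose (0.203% of all genes did), none fell and 31 were not called, with a median difference of 0.08. The list was chosen with earlier results of these data known, so this count is no test of the list. *Aspg*, an asparaginase and lysophospholipase, read 6.12, 6.28, 6.02, 6.15 and 5.89 in KO1 to KO5, against 5.34, 5.49, 5.42, 5.21 and 5.59 in WT1 to WT5. Its groups lay well apart, with a difference of 0.68 (SE 0.08, adjusted p = 0.00523, 1.60-fold). The probe set of *Aspg* averaged 5.41 in WT cortex, near the median of all probe sets (5.30). *S100a10*, which encodes a binding partner of annexin and is expressed in neurons as well as in reactive astrocytes, read 9.29, 9.47, 9.42, 9.44 and 9.64 in KO1 to KO5, against 8.96, 8.95, 9.04, 9.05 and 9.20 in WT1 to WT5. The difference was 0.41 (SE 0.07, adjusted p = 0.0365, 1.33-fold), and the call was lost when any one of WT1 to WT4 or of KO2 to KO5 was left out (adjusted p = 0.0719 to 0.117 in those cases).
The call of *Aspg* was kept with each mouse left out in turn. It was lost without KO1 and KO4 together (difference 0.65, adjusted p = 0.0911), and also with the replicate number as a block in the fit. Marker covariates ended both calls while the differences stayed of similar size. Both marker means differed between the genotypes themselves, so these fits cannot separate marker level from genotype. For *Aspg* the difference was 0.67 with the oligodendrocyte mean (adjusted p = 0.103) and 0.62 with the hippocampal mean (adjusted p = 0.265). For *S100a10* it was 0.38 with the oligodendrocyte mean (adjusted p = 0.419) and 0.45 with the hippocampal mean (adjusted p = 0.408). The sphingosine-1-phosphate receptor *S1pr3*, also of this list, read 7.72, 7.56, 7.51, 7.79 and 7.70 in KO1 to KO5, against 7.999, 7.89, 7.92, 7.89 and 8.07 in WT1 to WT5. All *Crtc1*-/- mice lay below all WT mice, opposite in direction to *Aspg*, and the difference of −0.29 did not pass (SE 0.06, adjusted p = 0.112). The chemokine *Cxcl10* had 0.14 (adjusted p = 0.604). The mean of the 33 genes was 6.09 to 6.20 per mouse in *Crtc1*-/- and 6.00 to 6.08 in WT cortex, a difference of 0.07 with and without WT4 and WT5.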

How the data were processed

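Cortical RNA of 5 *Crtc1*-/- and 5 WT mice had been hybridized to GeneChip Mouse Genome arrays (Affymetrix), 1 per mouse, after quality control with RACE in which arrays of high unscaled standard error were excluded. The authors deposited log2 values, 1 per probe set and array, already normalized between arrays with a method not given in the sources used here. No detection calls were used, and the number of arrays limits the precision.
Of these values 64 control probe sets were left out and 45037 probe sets were tested without a filter on dim ones, using limma (version 3.58.1, run under R 4.3.3) for the contrast of *Crtc1*-/- over WT. P-values from lmFit and eBayes were adjusted by the Benjamini-Hochberg method over all probe sets, with a threshold of 0.05. Adjusted p-values without another name are from this fit. It was also run on simulated arrays of independent noise with known changes added. Those arrays hold no shift shared by many genes, so they say nothing on such shifts. The platform annotation names 1 gene for 34945 probe sets, several for 932 and none for 9160. It names no genome build, so positions are given only for RefSeq promoters. The brightest probe set naming 1 gene stood for it.
The members and all lists were chosen with earlier results of these data known. A gene's values per mouse are given for *Crtc1*, for 8 defining astrocyte genes, for the 4 members with the most positive and the 4 with the most negative differences, and for members that passed or did not overlap. From the other astrocyte, pathway and reactive lists, called genes and up to 4 with the smallest p are named. From the lists of other cell types and of the hippocampus, only called genes are named, apart from *Ttr*, which was not called and was picked outside this rule. Alternatives were quantile normalization, median centring, a filter on dim probe sets, a robust variance prior with a trend, array weights, a replicate block, averaging the probe sets of a gene, dropping cross-hybridizing types, adjustment over genes, oligodendrocyte or hippocampal marker means as covariates, and each array left out. Leaving out WT4 with WT5, or KO1 with KO4, was added after the values were seen.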

Additional observations from a re-analysis of the deposited data

Results flagged for a closer look

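In 102 groups of 5 mice, 74 of them single astrocyte genes within a genotype and the rest means of gene lists, 4 had a mouse whose gap to the nearest other exceeded the Dixon limit, where chance gives about 1 in 20. *Hepacam*, which encodes an adhesion protein of astrocyte membranes, read 8.59 in KO5 and 8.73 to 8.76 in the other *Crtc1*-/- mice. *Vcam1* read 8.17 in KO5 and 8.36 to 8.43 in the other *Crtc1*-/- mice, and the microglia markers were low in KO5 as well (8.53). The mean of the reactive astrocyte genes was 6.20 in KO4 and 6.09 to 6.11 in the other *Crtc1*-/- mice. The mean of the neuron markers was 11.53 in KO4 and 11.57 to 11.58 in the other *Crtc1*-/- mice.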

How the results depend on the processing

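Under the 21 planned and 2 added alternatives the counts of astrocyte genes called higher and lower stayed at 0 and 0. In the main fit, with 5 mice per genotype, changes under about 0.26 could not be called for any member. This limit was not computed for the alternatives. The number of members whose groups did not overlap was 0 with quantile normalization and with median centring, where the narrow gap of *Gfap* closed, and 0 with all probe sets of a gene averaged. It was 2 without WT4 and WT5 (*Gfap*, and *Ttyh1* in the opposite direction) and 1 to 2 with single arrays left out. It was not computed with the block or the covariates. The median difference was −0.017 without WT4 and WT5, 0.029 to 0.084 with single arrays left out (0.029 without WT4, 0.044 without KO1, 0.043 without KO4), 0.020 without KO1 and KO4 and 0.027 with the hippocampal covariate.
The labels do not say whether arrays of the same replicate number belong together, and the main fit did not pair them. Correlations of deviations within numbers lay between −0.33 and 0.09, and 1 of 5 *Crtc1*-/- arrays correlated best with the WT array of its own number. With the replicate number as a block the counts were 0 and 0, the median was 0.072 and the differences were as before, with an adjusted p of 0.629 for *Gfap*, 0.0849 for *Aspg* and 0.0600 for *S100a10*, so that both calls were lost. The adjusted p of *Gfap* lay between 0.255 and 0.99995 over all alternatives.
Single differences near 0 changed sign, and the cause was not tested. *Slc1a3* had −0.045 with the hippocampal covariate, −0.046 without WT4 and WT5, −0.014 without KO1 and KO4, and −0.013 to 0.067 with single arrays left out. *Gja1* had −0.015 with the mean of all probe sets, −0.039 without cross-hybridizing probe sets (which leaves 28 members), −0.0035 with the hippocampal covariate and −0.017 without WT4 and WT5. *Aldoc* had −0.057 with the mean of all probe sets, −0.126 without cross-hybridizing ones, −0.066 without WT4 and WT5, −0.025 without KO1 and KO4, and −0.023 to 0.034 with single arrays left out. With the oligodendrocyte covariate *Prodh* had 0.054, *Cbs* 0.045 and *Gjb6* 0.066, and *Gjb6* had 0.070 with the hippocampal one. With single arrays left out *S100b* had −0.042 to 0.024 and *Gjb6* −0.096 to 0.017. Without KO1 and KO4 *Aspg* had 0.65 (adjusted p = 0.0911) and *S100a10* 0.47 (adjusted p = 0.0911), and *S100a10* had 0.47 without WT4 and WT5 (adjusted p = 0.0705).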
